A study of Mus musculus with 18 samples.

Results

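The Tcf3 knockout (ko) induced pluripotent stem cell (iPSC) clones made with OCK were compared with those made with OSK, over the autosomal genes. The clones were chosen by their labels alone, which name the factor set, the genotype and the clone number: 2 OCK ko clones and 2 OSK ko clones, or 4 of the 18 arrays of the series. Both sets contain Oct4 and Klf4. The third factor is c-Myc in OCK and Sox2 in OSK, so the groups differ in whether c-Myc or Sox2 was delivered. All 4 clones are labelled ko for Tcf3, the former name of Tcf7l1. Each array holds the RNA of 1 clone in standard culture, so a group is 2 clones and p-values measure the spread between these clones only. The cell of origin, the strain, the sex, the passage and the form of the Tcf3 allele are named neither in the labels nor in the files used here. The labels place the OCK and the OSK clones in different sections of the study's design, so a difference of section cannot be told apart from the factor set. The other 14 arrays entered no main comparison and gave levels without a test: a single OSK clone labelled Tcf3 wild type (wt), OCK cultures of wt and of ko cells with 1 array each on days 11, 15, 19, 22 and 26, and a partially reprogrammed OCK clone of wt genotype on day 2 of siRNA treatment, with 1 array for the control siRNA (siCtrl) and 2 for siTcf3 (A and B). All 18 arrays served to pick each gene's probe set, and the wt clone and the siRNA arrays entered alternative fits.

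Reprogramming factors push a somatic cell towards the state of an embryonic stem (ES) cell, and an established iPSC clone keeps that state through its own Pou5f1, Sox2 and Nanog. Tcf7l1 is a DNA-binding factor that can also bind beta-catenin, and it acts as a brake on pluripotency genes in ES cells. Clones that share a genotype can still differ by the factors used, by how far each went and by what each carried over from its founder cell, and a comparison of clone pairs separates what holds in every pair from what belongs to a single clone.

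The arrays gave log2 RMA signals for 17903 genes, 17127 of them autosomal. A signal of 5.64 is the floor of the table, log2 of 50, and stands for any lower level. Of the autosomal genes 4696 were at the floor on all 4 arrays and 12431 were tested. The arrays were alike in range, with 46.1% to 46.6% of probe sets at the floor. The 8 pluripotency markers Pou5f1, Nanog, Sox2, Zfp42, Esrrb, Dppa5a, Tdgf1 and Fbxo15 read between 11.27 and 14.60 in all 4 clones, as an iPSC label requires. Tcf7l1 read 9.45 and 9.56 in the OCK clones and 9.49 and 9.37 in the OSK clones, against 10.68 in the OSK wt clone. It was therefore lower than wt in all 4 ko clones and was not called between the ko groups (difference 0.07 ± 0.10, adjusted p = 0.725). No label says whether its probe set lies inside the deleted part, so the remaining signal checks little. Here and below, a difference is the mean of the OCK clones minus the mean of the OSK clones in log2 units, ± its standard error from limma with 2 clones in each group, and a gene is called at a Benjamini-Hochberg adjusted p under 0.05.

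The clones of the OCK pair were less alike than those of the OSK pair. Over the 11603 genes above the floor on all 4 arrays, the difference between clone 1 and clone 2 had a standard deviation of 0.39 in the OCK pair and 0.14 in the OSK pair. Of the autosomal genes tested, 374 (3.01%) lay 1 log2 unit or more apart in the OCK clones and 3 (0.0241%) in the OSK clones. Across these genes, which are not independent replicates, the OCK clones correlated at 0.977 with each other and the OSK clones at 0.997. OCK clone 2 was the nearer of the pair to the OSK clones, at 0.976 and 0.974 against 0.965 and 0.966 for OCK clone 1.

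In all, 201 of 12431 autosomal genes (1.62%) were called, 85 higher in OCK (0.684%) and 116 lower (0.933%), out of 285 calls over all genes tested (2.21%). The adjusted p-values of these calls ran only from 0.0218 to 0.0496, and 2789 genes had an unadjusted p under 0.05. All 201 called genes had OCK clones that did not overlap the OSK clones, as had 6891 of all genes tested (55.4%). Of the called genes, 112 differed by at least 1 log2 unit. The calls rest on the narrow spread of the OSK pair: limma called 0 autosomal genes without OSK clone 1, without OSK clone 2, or with the spread of the OCK clones alone, with 924, 887 and 1407 at an unadjusted p under 0.05. Without OCK clone 1 it called 2842 and without OCK clone 2 it called 3651, and all 201 genes were among both.

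Differences that hold in every clone pair were set apart from those that follow a single clone. A gene held in all 4 pairs where both OCK clones lay at least 1 log2 unit above, or below, both OSK clones. This was so for 130 genes (1.05%), 66 higher in OCK (0.531%) and 64 lower (0.515%). Of these, 39 higher (0.314%) and 44 lower (0.354%) were also called by limma, or 83 in all (0.668%), and the remaining 47 were not. At the edge of the rule, Slc25a4 at 13.12 and 13.11 against 12.11 and 11.94, and Cnpy1 at 9.31 and 9.15 against 10.36 and 10.31, lay just inside. Id2 at 8.09 and 7.17 against 6.18 and 5.99, and Gstt2 at 6.96 and 7.28 against 8.32 and 8.27, lay just outside. A gene followed a single clone where that clone lay at least 1 log2 unit from the nearest of the other three, which spanned less than 1 log2 unit. There were 208 such genes (1.67%), and every one followed an OCK clone.

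**Figure D1:**
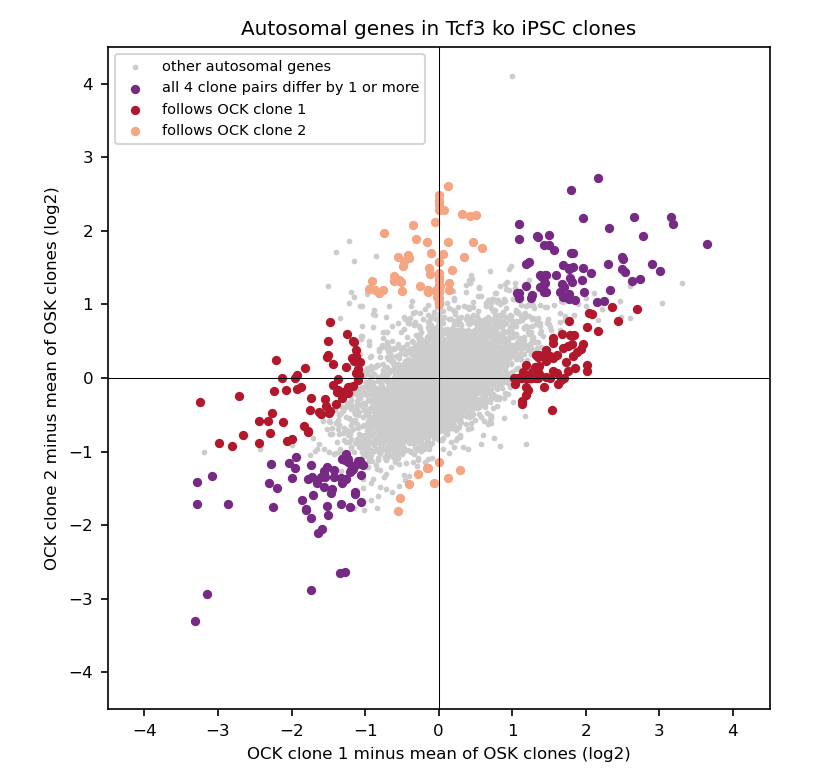
Each point is an autosomal gene tested, with OCK clone 1 minus the mean of the OSK clones on the x axis and OCK clone 2 minus the same mean on the y axis, both in log2 units. The 130 purple genes lie along the diagonal with both clones displaced the same way, the red genes along the x axis follow OCK clone 1, and the orange genes along the y axis follow OCK clone 2.

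The largest called fall was in Neurod1, a basic helix-loop-helix factor that drives neuronal and endocrine differentiation. It was at the floor in both OCK clones and at 8.84 and 9.06 in the OSK clones, so that it was at least 9.9-fold lower in OCK (adjusted p = 0.0218). A separate probe set of Neurod1 also sat at the floor in both OCK clones and read 7.87 and 7.96 in the OSK clones. Srgn, the core protein of secretory granule proteoglycans, read 7.21 and 7.43 in OCK against 10.66 and 10.08 in OSK and fell by 3.05 ± 0.23 (adjusted p = 0.035). No OCK value of either gene came within 2 log2 units of an OSK value. Mapk4, an atypical MAP kinase, read 6.2 and 6.70 against 8.48 and 8.43 and fell by 2.00 ± 0.19 (adjusted p = 0.0365).

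Among other falls, Mest, a paternally expressed imprinted gene, was the tightest of the large ones. It read 8.40 and 8.42 in OCK against 10.23 and 10.17 in OSK and fell by 1.79 ± 0.09 (adjusted p = 0.035). B4galnt2, a glycosyltransferase that makes the Sda blood group sugar, read 6.15 and 5.68 against 7.68 and 7.91, and Fgd5, a Cdc42 exchange factor, 6.11 and the floor against 7.65 and 7.75. B4galnt2 fell by 1.88 and Fgd5 fell by 1.82, and as their OCK values lay near the floor, the differences may be understated. Polr3gl, a subunit of RNA polymerase III, read 7.73 and 7.56 against 9.5 and 9.44, and the phospholipase Liph 7.49 and 7.68 against 9.33 and 9.35. The clones of each group lay within 0.2 log2 units of each other for both genes, and the groups were over 1.6 log2 units apart.

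Trim56, a ubiquitin ligase of innate immunity, read 6.0 and the floor against 7.48 and 7.54. Lef1, a Tcf/Lef factor that works with beta-catenin, read 5.82 and 6.2 in OCK against 7.46 and 7.62 in OSK and fell by 1.53 ± 0.16 (adjusted p = 0.0375). It was the 1 called member of the 30 Tcf/Lef and Wnt pathway genes tested, where 0.933% of all autosomal genes tested were called lower. Atf5, a transcription factor of the amino acid and unfolded protein response, read 8.53 and 8.76 against 10.25 and 10.12, and Aldh1l2, a mitochondrial folate enzyme, 6.59 and 7.0 against 8.37 and 8.38. Atf5 fell by 1.54 ± 0.12 and Aldh1l2 fell by 1.58 ± 0.16. Reep6, a membrane-shaping protein of the endoplasmic reticulum, read 7.46 and 7.24 against 8.86 and 9.10, and Rgs9bp, an anchor of a G-protein regulator, 6.22 and 5.84 against 7.69 and 7.41. Prune2 read 7.40 and 7.53 against 9.07 and 9.15 on its brightest probe set. Its other probe sets disagreed, since 1 differed by -1.21 and 1 by 0.22, so this fall is uncertain.

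On the probe set used for each gene, the largest called rise was in Gpat3, which makes lysophosphatidic acid for triglyceride synthesis. It read 9.0 and 8.03 in OCK against 6.01 and 5.67 in OSK, a difference of 2.67 ± 0.36 (adjusted p = 0.0496), the widest standard error of the named rises. Apobec2, a member of the cytidine deaminase family, read 8.70 and 9.25 against 6.56 and 6.52 (2.44 ± 0.20, adjusted p = 0.035). Calcoco2, an autophagy receptor that is also among the genes of the 2-cell-like state of ES cells, read 10.28 and 9.81 against 7.75 and 7.5 (2.42 ± 0.20, adjusted p = 0.035). In each of these genes both OCK clones stood more than 2 log2 units above both OSK clones. Elobl, which is related to a subunit of an elongation and ubiquitin ligase factor, read 9.49 and 9.22 against 7.30 and 7.05. A probe set of Xaf1 that was not used differed by more than Gpat3, at 10.23 and 9.6 against 6.90 and 6.94 (2.99). The Xaf1 probe set used differed by 1.20.

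Both sialyltransferase genes that met the rule were higher in OCK. St8sia1, which makes ganglioside GD3, read 8.42 and 7.57 in OCK and was at the floor in both OSK clones, so it was at least 5.11-fold higher (adjusted p = 0.0459). Its other 2 probe sets were also at the floor in both OSK clones and above it in both OCK clones. St8sia6 read 7.62 and 7.49 against the floor and 5.94, with no overlap. Map2, a microtubule protein of dendrites, read 7.71 and 7.92 against the floor and 5.84. Map2 and Neurod1 were the only called genes among the 20 neural genes tested, and they changed in opposite directions. Among all autosomal genes tested, 0.684% were called higher and 0.933% lower.

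Lpar1, a lysophosphatidic acid receptor, read 9.10 and 9.0 in OCK against 7.32 and 7.28 in OSK, a difference of 1.75 ± 0.09 (adjusted p = 0.035). Klk1, a kallikrein protease, read 7.67 and 7.20 against 5.76 and the floor, and Rcsd1, which binds an actin capping protein, read 8.29 and 8.72 against 6.78 and 6.78. Abcb1b, a drug efflux pump, read 9.60 and 9.91 against 8.15 and 8.07, and the bHLH repressor Msc read 8.97 and 9.14 against 7.35 and 7.45. Oas1a, an interferon-induced oligoadenylate synthetase, read 9.14 and 9.71 against 7.77 and 7.81. It was the 1 called member of 17 interferon-induced genes tested, where 0.684% of all autosomal genes tested were called higher. Of the 17, 8 were non-overlapping and higher and 4 non-overlapping and lower, against 23.0% and 32.4% of all autosomal genes tested. Mme, the membrane protease neprilysin, read 11.63 and 11.34 against 9.83 and 9.89. Both probe sets of Mme gave this order, with differences of 1.62 and 1.73.

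**Figure D2:**
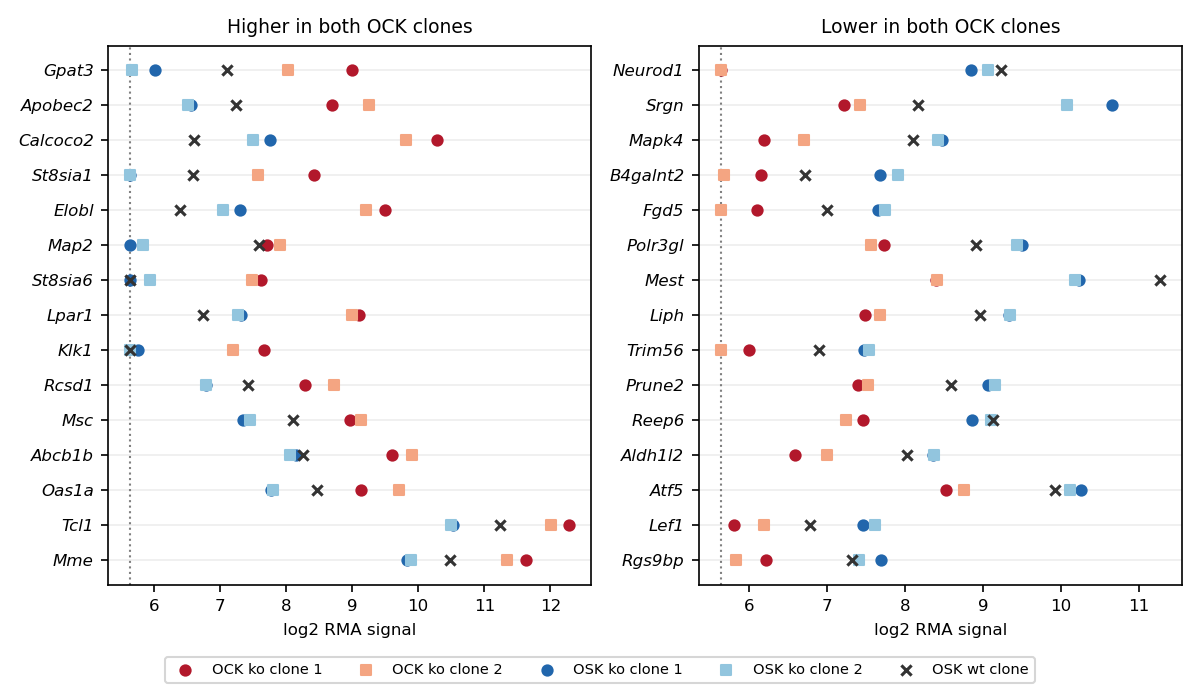
The x axis is the log2 RMA signal of the 15 called genes with the largest rise (left) and the largest fall (right) among those holding in all 4 clone pairs; red and orange symbols are the OCK ko clones, dark and light blue the OSK ko clones, crosses the OSK wt clone, and the dotted line is the floor of 5.64. The red and orange symbols stand clear of the blue ones in every row, which the rule requires, while the crosses vary from row to row and both OCK symbols of Neurod1 coincide at the floor.

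The remaining arrays show where such genes stood outside these clones. The OSK wt clone shares the factor set of the OSK ko clones but not their genotype. Over genes above the floor in every ko clone, it correlated at 0.9843 and 0.9836 with the OSK ko clones. With the OCK ko clones the values were 0.9584 and 0.9702. Its side of the midpoint was not counted over all autosomal genes, so the next counts do not set the selected genes apart. It lay on the OSK ko side of the midpoint for 31 of the 39 genes higher in OCK and for 37 of the 44 lower genes. Map2 was an exception at 7.60 in the OSK wt clone, near the OCK ko values, whereas Neurod1 read 9.24 there, near the OSK ko values. Mest read 11.27 in the OSK wt clone, above both ko groups. In the OCK ko cultures of days 11 to 26, Neurod1 stood between the floor and 6.50, Srgn between 8.99 and 10.80, Lpar1 between 9.14 and 11.19, and Mme between 10.69 and 12.21. Tcl1 and Prune2 were at or near the floor in those cultures, at no more than 5.94. In the wt cultures of the same days Neurod1 reached 8.42, on day 26. In the partially reprogrammed clone Neurod1 and Tcl1 were at the floor on all 3 arrays, and Srgn stood at 12.55 with siCtrl and at 11.75 and 11.87 with siTcf3, above every iPSC clone.

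Of the 4 delivered factors (Pou5f1, Sox2, Klf4 and Myc) limma called 0, with a lowest adjusted p of 0.389. Sox2, which only the OSK cells received, read 12.50 and 12.33 in OCK against 12.30 and 12.42 in OSK. Pou5f1 read 11.90 and 12.35 against 12.18 and 11.99, with overlapping groups. Klf4 read 11.79 and 10.94 against 10.83 and 10.91, where only OCK clone 1 stood apart. Myc, which only the OCK cells received, was at the floor in OCK clone 1 and at 8.09 in OCK clone 2, against 7.88 and 7.82 in OSK. Myc thus followed OCK clone 1. Whether these probe sets also read transgene RNA was not tested.

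The pluripotency network was high in all 4 clones, with 1 of 25 naive pluripotency genes called, higher in OCK (background 0.684%). That gene, Tcl1, a coactivator of Akt, read 12.29 and 12.01 in OCK against 10.52 and 10.50 in OSK, a difference of 1.63 ± 0.13 (adjusted p = 0.035). The list median was 0.25, against -0.03 over all autosomal genes tested, and 14 members were non-overlapping and higher (background 23.0%) and 3 non-overlapping and lower (background 32.4%). The uncalled members with the largest differences were both lower in OCK. Lin28a, an RNA-binding protein that blocks let-7, read 8.73 and 10.83 against 11.62 and 11.81 (adjusted p = 0.205). Gbx2, a homeobox factor downstream of Stat3, read 6.70 and 8.25 against 9.07 and 9.22 (adjusted p = 0.168). In both genes OCK clone 1 was the lowest and OCK clone 2 lay between it and the OSK clones.

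Of 9 autosomal genes known to be repressed by Tcf3 in ES cells, Tcl1 rose and Lef1 fell, and the rest were not called. The background was 0.684% called higher and 0.933% called lower. The list median was 0.44, with 6 members non-overlapping and higher (background 23.0%) and 1 lower (background 32.4%). Tbx3, a T-box factor of the naive state, read 11.43 and 10.95 against 9.94 and 10.02, which missed the threshold (1.21 ± 0.18, adjusted p = 0.0574). Foxd3 read 6.72 and 7.96 against 6.94 and 6.47 and overlapped. All 4 clones carry the same Tcf3 label, so its genotype is not what was compared. The 6 genes of the 2-cell-like state that were tested had a median of 1.05, and 5 were non-overlapping and higher (background 23.0%), but only Calcoco2 was called. Tcstv1 read 9.41 and 8.07 against 6.98 and 6.06 (adjusted p = 0.113), with OCK clone 1 well above OCK clone 2.

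Genes of serine, glycine and amino acid supply formed the list with the most called falls. These enzymes feed one-carbon metabolism, on which mouse ES cells lean heavily, and the transporters bring neutral amino acids into the cell. Of 16 autosomal members tested, 0 were called higher and 3 lower (background 0.684% and 0.933%), and 14 were non-overlapping and lower against a background of 32.4%. The list median was -0.69, and it was -0.70 with OCK clone 1 alone and -0.63 with OCK clone 2 alone. Gldc, the glycine decarboxylase, read 9.25 and 9.40 in OCK against 10.37 and 10.43 in OSK and fell by 1.08 ± 0.10 (adjusted p = 0.0365). Psph, the last enzyme of serine synthesis, read 10.96 and 10.92 against 11.85 and 11.81 and fell by 0.89 ± 0.09 (adjusted p = 0.0365). The glycine transporter Slc6a9 read 7.92 and 8.04 against 8.72 and 8.78 and fell by 0.77 ± 0.10 (adjusted p = 0.0446). A second probe set of Slc6a9 differed by only -0.15. For these 3 genes the OCK clones were within 0.15 log2 units of each other.

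Slc7a7, a transporter of basic amino acids, read 7.03 and 8.78 against 10.10 and 10.10 but was not called, since its OCK clones were far apart (adjusted p = 0.129). The serine hydroxymethyltransferase Shmt2 read 9.13 and 9.72 against 10.70 and 10.68 (adjusted p = 0.0647). Asns, the asparagine synthetase, was named after its values were seen because it did not share the pattern. It read 13.27 and 12.64 against 12.88 and 12.86, with overlapping groups. Pck2, the mitochondrial PEP carboxykinase, Stc2, a secreted stress protein, and Cth, which makes cysteine, are outside the list and were also singled out after their values were seen. Pck2 read 9.81 and 9.74 against 11.05 and 10.98 (adjusted p = 0.035), Stc2 7.03 and 7.24 against 8.33 and 8.35, and Cth 11.23 and 11.49 against 12.45 and 12.39. All 3 were called lower and did not overlap. Of 21 stress and heat shock genes 0 were called, the lowest adjusted p being 0.0552 for Chac1, a glutathione-degrading enzyme at 9.06 and 8.72 against 9.97 and 9.84.

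**Figure D3:**
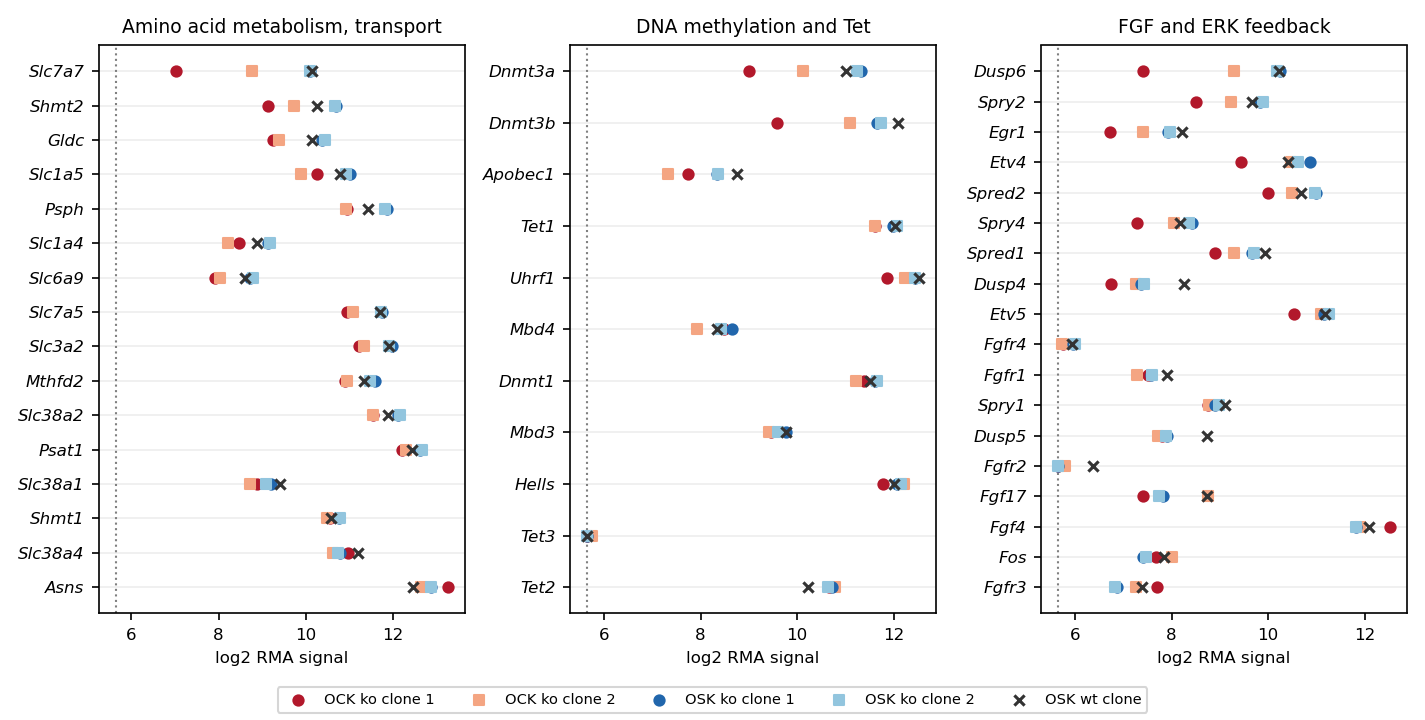
The x axis is the log2 RMA signal of each autosomal gene tested in 3 lists, sorted by the difference, with red and orange symbols for the OCK ko clones, dark and light blue for the OSK ko clones, crosses for the OSK wt clone and a dotted line at the floor of 5.64. In the amino acid list 14 of 16 rows have both OCK symbols to the left of both blue ones, while in the FGF and ERK list OCK clone 1 is the leftmost in the upper rows and OCK clone 2 lies nearer the OSK clones.

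Many genes of amino acid supply carry a site for the stress factor Atf4 and its partners, of the form TGATGNAA, where N is any base. RefSeq promoters (GRCm38.p6, from 250 bases before to 50 bases after the start) were searched for it on both strands. A gene counted where the letters lay at any of its starts, and genes with several starts have more sequence to match. The letters were present in 1304 of 32851 promoters (3.97%), which belong to 1219 of 27025 genes (4.51%), and in 268 of the 10023 autosomal genes tested that matched a promoter (2.67%, with 1.28 starts a gene). They were present in 9 of 95 matched genes called lower (9.47%, with 1.51 starts a gene), in 1 of 63 called higher (1.59%, with 1.21) and in 3 of 13 matched genes of the amino acid list (23.1%, with 1.69). The Tcf/Lef core CTTTGAT was present in 3.73% of all promoters and 4.29% of their genes, in 3 of 95 genes called lower and in 2 of 63 called higher, so it was about as frequent in both as in the 3.15% of genes tested. The windows below lie before the start of 5 genes that carry the first motif. Pck2, Srgn and Serpinf1 were taken from the genes called lower, so their direction was set by the choice. Slc7a7 and Asns come from the amino acid list. Slc7a7 read lower in both OCK clones and Asns did not, although both hold the letters. Not shown are the carriers Arhgef2, Limd2, Mbnl2, Phyh, Spata13 and Tnnt1 among the genes called lower, and Slc1a4 in the amino acid list. Capitals mark the match, on either strand, and each line reads 5′ to 3′ on the gene's strand.
Slc7a7, upstream start, chr14:54418053-54418110 (-): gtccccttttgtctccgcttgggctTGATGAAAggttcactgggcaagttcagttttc
Slc7a7, downstream start, chr14:54417913-54417952 (-): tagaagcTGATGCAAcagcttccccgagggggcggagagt
Pck2 chr14:55540138-55540195 (+): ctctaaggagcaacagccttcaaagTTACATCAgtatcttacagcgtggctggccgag
Srgn chr10:62507891-62507948 (-): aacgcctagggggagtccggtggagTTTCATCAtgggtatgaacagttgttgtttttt
Serpinf1 chr11:75422624-75422679 (-): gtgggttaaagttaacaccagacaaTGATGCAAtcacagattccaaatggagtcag
Asns chr6:7693210-7693257 (-): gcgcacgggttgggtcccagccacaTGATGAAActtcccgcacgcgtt

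Slc7a7 has 5 RefSeq starts, and a match begins 141 bases before the upstream one shown and 243 bases before the downstream one. The match begins 103 bases before the start in Pck2, 166 in Srgn, 31 in Serpinf1 and 23 in Asns. Serpinf1, a secreted serpin, was picked for its window after its values were seen. It read 8.11 and 8.19 in OCK against 9.73 and 9.61 in OSK and fell by 1.52 ± 0.10 (adjusted p = 0.035). The same letters thus stood before Pck2, Srgn and Serpinf1, which were called lower, and before Asns, whose groups overlapped. A match describes the letters of the window, and binding was not measured.

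The maternally expressed RNAs of the imprinted Dlk1-Meg3 region, whose silencing is known to vary between iPSC clones, read lower in both OCK clones without being called. Meg3 read 9.33 and 8.18 in OCK against 11.09 and 11.04 in OSK (-2.31 ± 0.40, adjusted p = 0.065). Mirg read 7.61 and 6.31 against 9.0 and 8.91 (adjusted p = 0.0956), and Rian, the third RNA tested, read 9.54 and 8.17 against 10.81 and 10.82 (adjusted p = 0.107). All 3 held in all 4 clone pairs, against 0.515% of genes tested, and in each RNA OCK clone 2 was the lower clone by over 1 log2 unit. They come from neighbouring genes and are not independent of each other. The OSK wt clone read 11.77, 9.53 and 11.53. Dlk1 itself, the paternally expressed gene of the region, was at the floor in all 4 clones.

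Of 23 other imprinted genes tested, 1 was called lower (Mest) and 1 higher (background 0.933% and 0.684%). Ndn, a paternally expressed neuronal growth suppressor, read 10.71 and 10.43 in OCK against 9.36 and 9.5 in OSK and rose by 1.14 ± 0.14 (adjusted p = 0.0439). Sgce, a paternally expressed sarcoglycan gene, read 6.97 and 6.47 against 7.76 and 8.02 (adjusted p = 0.068), and Nnat, a paternally expressed proteolipid gene, read the floor and 6.25 against 6.97 and 7.03 (adjusted p = 0.085). The calls were thus in opposite directions, and of the 23 genes 5 were non-overlapping and higher, near the background of 23.0%, and 10 non-overlapping and lower (background 32.4%).

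Of 11 DNA methylation genes limma called 0, while 7 were non-overlapping and lower (background 32.4%) and 0 non-overlapping and higher (background 23.0%). Dnmt3a, a de novo DNA methyltransferase, read 9.0 and 10.12 in OCK against 11.33 and 11.23 in OSK (-1.72 ± 0.39, adjusted p = 0.0953). Dnmt3b, its paralogue, read 9.58 and 11.10 against 11.65 and 11.74 (adjusted p = 0.215). For both enzymes OCK clone 1 was the lower by more than 1 log2 unit, and both OCK clones lay below the OSK clones. Of 19 Polycomb genes, only Phc1, a subunit of Polycomb repressive complex 1, was called (background 0.933% called lower). It read 11.26 and 11.40 against 12.16 and 12.15 and fell by 0.82 ± 0.10 (adjusted p = 0.0439). Bmi1, another subunit of that complex, lay the other way at 9.25 and 9.32 against 8.67 and 8.72 and was not called (adjusted p = 0.0578).

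FGF signalling acts through ERK, which in turn raises feedback inhibitors such as the Sprouty and Dusp genes. Of 18 genes of this pathway 0 were called, and 13 were non-overlapping and lower (background 32.4%) against 3 non-overlapping and higher (background 23.0%). The list median was -0.31, and it was -0.52 with OCK clone 1 alone and -0.21 with OCK clone 2 alone. Dusp6, an ERK phosphatase, read 7.41 and 9.28 in OCK against 10.24 and 10.19 in OSK (adjusted p = 0.186). Spry2, a feedback inhibitor of receptor tyrosine kinases, read 8.51 and 9.23 against 9.84 and 9.90 (adjusted p = 0.119). OCK clone 1 was the lowest clone for both.

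Glycolysis genes had a median of -0.32, with 0 of 14 called, 10 non-overlapping and lower (background 32.4%) and 2 non-overlapping and higher (background 23.0%). Pdk1, a kinase that inhibits pyruvate dehydrogenase, read 8.73 and 9.60 in OCK against 11.03 and 11.02 in OSK (adjusted p = 0.0635), and the enolase Eno3 read 7.73 and 8.46 against 9.69 and 9.68 (adjusted p = 0.0635). Both held in all 4 pairs. Of 21 respiratory chain genes 0 were called, and their median of -0.03 was that of all genes tested.

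Among 26 epithelial genes, 2 were called, both higher in OCK (background 0.684%) and both parts of the desmosome. Dsp, the desmosomal plaque protein, read 10.20 and 9.91 against 8.86 and 8.62 and rose by 1.32 ± 0.15 (adjusted p = 0.0432). Dsg2, a desmosomal cadherin, read 11.41 and 11.27 against 10.04 and 10.04 and rose by 1.30 ± 0.10 (adjusted p = 0.035). The list as a whole did not follow them, with a median of -0.24, 6 genes non-overlapping and higher, at the background of 23.0%, and 13 non-overlapping and lower (background 32.4%). Perp, a p53 target of the desmosome, rose as well, at 9.71 and 9.72 against 8.88 and 8.84 (0.85 ± 0.09, adjusted p = 0.0365). It was the 1 called gene of 18 in the p53 and senescence list (background 0.684% called higher).

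Single calls came from 4 further lists, where 0.684% of all autosomal genes tested were called higher and 0.933% lower. Hoxd13, the last of the HoxD genes, read 6.89 and 7.13 in OCK against 6.10 and 6.10 in OSK, the 1 call among 13 Hox genes. A second probe set of Hoxd13, near the floor, differed by -0.0051 with overlapping groups. Syce1, a protein of the meiotic synaptonemal complex, read 9.36 and 9.46 against 8.70 and 8.63, the 1 call among 18 germline genes. H2-Eb1, an MHC class II chain, read 7.73 and 7.60 against 6.72 and 6.64, the 1 call among 6 MHC genes. Tnnt1, a troponin of slow muscle, read 6.85 and 7.05 against 8.15 and 8.14, the 1 call among 13 muscle and contractile genes. Among 20 primitive endoderm genes 0 were called, 9 were non-overlapping and lower (background 32.4%) and 1 was non-overlapping and higher (background 23.0%). The endocytic receptor Cubn was at the floor in both OCK clones and read 7.80 and 7.09 in OSK (adjusted p = 0.0537). The summed linear signal of 6 primitive endoderm markers was 384 and 528 in OCK against 868 and 674 in the OSK ko clones. It was 490 in the OSK wt clone, below OCK clone 2, where 4 of the 6 markers were at the floor. The sums were led by the endocytic adaptor Dab2 at 6.10 and 7.95 against 8.81 and 8.27. Sox7 went the other way in OCK clone 2, at 6.32 against 5.75 and the floor in the OSK ko clones. The part of these markers in the result was not tested. The lists of primed epiblast (14 tested), Nodal and TGF-beta (22), LIF and Stat3 (16), primitive streak and mesoderm (15), trophoblast (10), fibroblast and mesenchymal (25), macrophage and blood (5), endothelial (8) and cell cycle genes (20) held 0 calls. The 14 Wnt targets held 1, Lef1, and 1.62% of all autosomal genes tested were called.

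**Figure D4:**
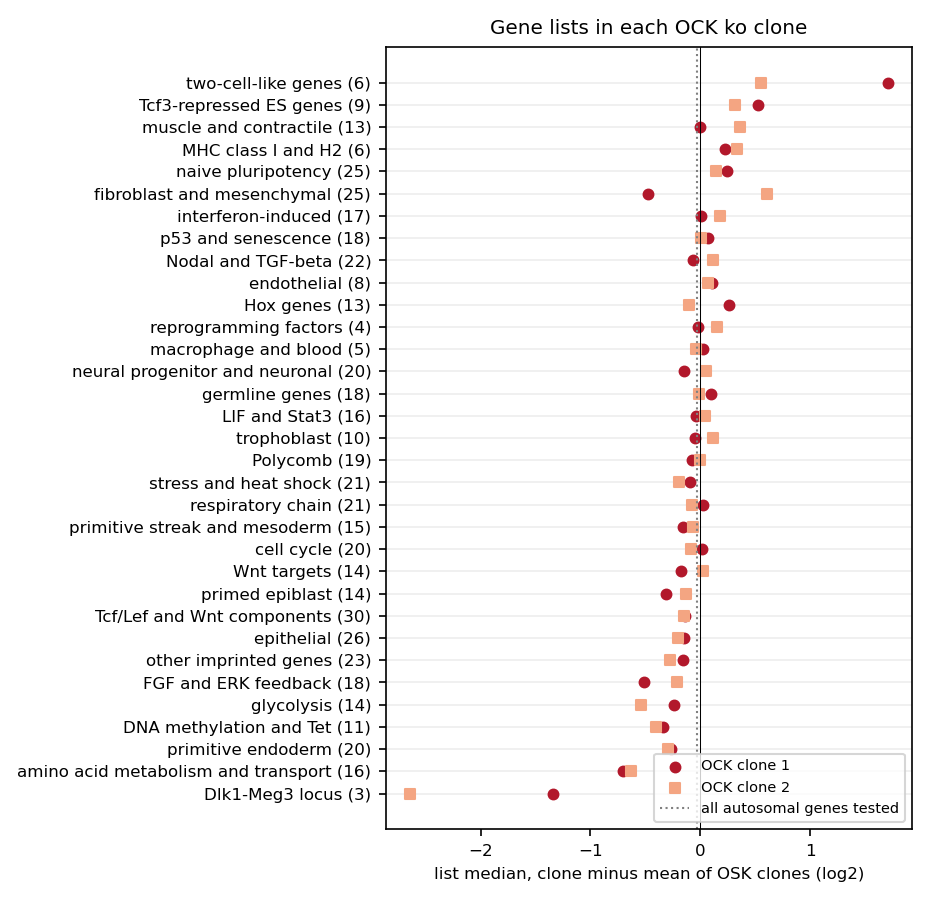
Each row is a gene list with its number of autosomal genes tested, and the x axis is the list's median difference from the mean of the OSK clones in log2 units, for OCK clone 1 (red circles) and OCK clone 2 (orange squares). The amino acid list lies near -0.7 and -0.6 in both clones, the Dlk1-Meg3 RNAs are lowest, and the fibroblast list lies at -0.47 in OCK clone 1 and at 0.60 in OCK clone 2.

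The genes that follow a single clone fell into 4 sets. OCK clone 1 was set apart by a high value in 71 (0.571%) and by a low value in 62 (0.499%). OCK clone 2 was set apart by a high value in 65 (0.523%) and by a low value in 10 (0.0804%). The rule lets the other OCK clone differ from the OSK clones the same way by less than 1 log2 unit, as in Lin28a and Dusp6. None of the genes in these sets followed an OSK clone, and 0 were called by limma. The rule leaves hardly any room for a call, since it puts their OCK clones at least 1 log2 unit apart. The 5 widest gaps of OCK clone 1 were all low values. Enox1, a cell surface oxidase, read 5.75 in OCK clone 1 against 8.66 in OCK clone 2 and 8.98 and 8.99 in OSK. Trh, the thyrotropin-releasing hormone precursor, read 6.67 against 9.14, 9.32 and 9.43, and Zfp423, a zinc finger factor of adipogenic and neural lineages, read 7.80 against 9.86, 10.10 and 9.96. Myc and Lin28a, described above, completed the 5. Among the 62 genes set apart by a low value in OCK clone 1 were 2 of the FGF and ERK list, Dusp6 and Etv4, and 3 of the fibroblast list.

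The 5 widest gaps of OCK clone 2 were all high values. Ptx3, a secreted pentraxin, Sptssb, a subunit of serine palmitoyltransferase, Otor, a secreted cartilage protein, and Krt6b, a keratin, were at the floor in OCK clone 1 and in both OSK clones and read 8.14, 8.06, 8.0 and 7.93 in OCK clone 2. Col8a1, a network-forming collagen, read 8.81 in OCK clone 2 against 6.33, 6.38 and 6.03. Ptx3, Sptssb, Krt6b and Col8a1 were above 10 in all 5 OCK ko cultures, and Otor was at 5.89 or below in them. Of the 65 genes set apart by a high value in OCK clone 2, 9 belong to the fibroblast list. Examples are Lox, the collagen cross-linking enzyme, at 10.55 against 8.34, 8.33 and 8.18, and Col5a2 at 10.02 against 7.84, 7.99 and 7.80. The OSK wt clone lay nearer to OCK clone 2 than to the other three for 36 of the 65 (55.4%).

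The fibroblast or feeder cell markers Col1a1, Col1a2, Col3a1 and Thy1 are themselves members of this set. Their high level in OCK clone 2 therefore follows from the choice of the set and is no separate check. The markers Postn and Lum were at the floor in every ko clone, and Dcn was lower in OCK clone 2 than in both OSK ko clones. Of 8 markers 7 were measured, and their summed linear signal was 2919 in OCK clone 2, 860 in OCK clone 1, 1292 and 1221 in the OSK ko clones and 3295 in the OSK wt clone. Between 2 and 3 of the 7 were at the floor in each ko clone. The fibroblast list had a median of 0.18 over both OCK clones, but -0.47 in OCK clone 1 and 0.60 in OCK clone 2. The part of such cells in these genes was not tested. In RNA of whole cultures, fewer cells of a type and less RNA per cell cannot be told apart. The summed signal of 5 neural markers was also highest in OCK clone 2, at 1213. The sum was 614 in OCK clone 1, 792 and 779 in the OSK ko clones and 915 in the OSK wt clone. Most of the sum in OCK clone 2 came from Tubb3, a neuronal tubulin, at 9.94 against 8.69, 9.07 and 9.03. Pax6 and Sox1 read 5.94 and 6.17 in OCK clone 2, below both OSK ko clones (6.09 and 6.09 for Pax6, 6.43 and 6.48 for Sox1). Dcx and Zic1 were at the floor in all 4 clones. The part of neural cells was not tested either. The highest trophoblast marker was Krt7 at 7.70 in OCK clone 1, the highest mesoderm marker was Kdr at 6.93, and the highest macrophage marker was Cd68 at 7.46.

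Each autosome as a whole stood near 0. Over genes above the floor on all 4 arrays, the median difference ran from -0.09 on chromosome 15 to 0.02 on chromosome 1. The X chromosome, which is not part of the comparison, stood at 0.60, with 0.57 to 0.66 in the 4 clone pairs. Of 425 X-linked genes tested, 84 (19.8%) were called higher and 0 lower, and 335 (78.8%) were non-overlapping and higher. The OSK wt clone lay between the groups, with an X median 0.21 above the OSK ko clones and OCK clones 1 and 2 at 0.36 and 0.33 above it. Xist, Tsix and the Y-linked genes Eif2s3y, Kdm5d and Uty were at the floor in all 4 clones. The groups differ in X-linked signal in every pair, so for the autosomal genes the factor set and the X-linked difference cannot be told apart.

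**Figure D5:**
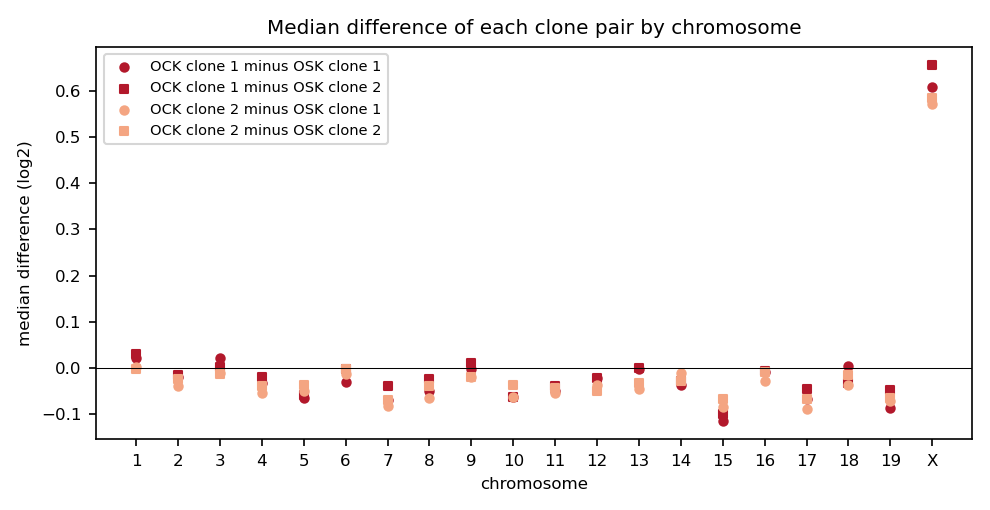
The y axis is the median log2 difference of each clone pair over genes above the floor on all 4 arrays, and the x axis the chromosome; colour gives the OCK clone and shape the OSK clone. The autosomal points lie within -0.12 and 0.03, and the 4 points of the X chromosome lie between 0.57 and 0.66.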

How the data were processed

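The authors deposited log2 values made with RMA, per the submitters' processing notes, which name no version. All values share a lowest value of 5.64, seen in the values. Of 40508 probe sets, 31076 had 1 gene symbol, 636 several and 8796 none in the platform annotation, and 30878 matched the RefSeq gene table (GRCm38.p6). Each gene was read from its brightest probe set, by the mean of all 18 arrays. The test was limma 3.58.1 in R 4.3.3 on the 4 arrays, with Benjamini-Hochberg adjustment over all 12905 genes tested, sex-linked ones included. Its prior came from genes above the floor on all 4 arrays, a gene with any floored array received no less than that variance, and a gene floored on all 4 was not tested. On simulated data (10 runs, 200 genes altered in each) the same code found 54.5% of changes of 1 log2 unit and 89.8% of 2, with 5.62% false calls. Simulated clones varied alike in both groups, unlike the real ones.

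Named were Tcf7l1 and the delivered factors, the 15 largest called differences in each direction holding in all 4 pairs, the 5 widest gaps per clone, and in each list up to 4 called and 2 uncalled genes. Predicted genes were counted and not named. The members, the 34 lists and the tests were chosen with earlier results of these data known. The number of arrays limits the precision. Alternatives covered the arrays in the fit, the prior, the probe sets, filters, normalization, the clone block and leaving out each clone.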

Additional observations from a re-analysis of the deposited data

How the results depend on the processing

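The direction of all 201 calls was kept in the alternative fits, but for most fits this was fixed beforehand. A change of prior, filter, block or further arrays in the fit leaves the difference itself as it was. Leaving out a clone cannot turn the sign where groups do not overlap. Only averaged probe sets and normalization could have turned a call. The number of calls was not stable. It was 1161 (418 higher, 743 lower) with 8 arrays in the fit and 448 (173 and 275) with a trended prior. With limma's plain prior and floored genes tested too there were 91 calls (31 and 60), only 25 of them among the 201. Testing floored genes with the main prior gave 43 (18 and 25), all among the 201. Averaging the probe sets of each gene gave 136, with 111 among the 201. Leaving out each clone gave 0 to 3651 calls (0 to 1658 higher, 0 to 1993 lower). With the clone number as a replicate block there were 96 calls (49 higher, 47 lower), 75 of them among the 201. The deviations of same-numbered clones were only weakly and negatively correlated over all genes (-0.12). With crossed numbers as the block, chosen after seeing the data, there was 1 call (0 higher, 1 lower). With the spread of the OCK clones alone, also added after seeing the data, there were 0 (0 and 0). Median centring gave 237 calls, 49.4% of them higher against 42.3%.

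Genes holding in all 4 pairs numbered 266 higher and 429 lower at 0.5 log2 units, with 914 following a single clone; 4, 2 and 18 at 2 log2 units; and 41, 39 and 135 with probe sets averaged for each gene. With that average the X median was 0.53 and the lowest autosomal median -0.058, and the X median was 0.66 among genes with a mean level of at least 8. It gave list medians of -0.57 for amino acid supply and -0.24 for primitive endoderm. Leaving out an OCK clone gave list medians of 0.14 to 0.25 (naive pluripotency), -0.40 to -0.33 (DNA methylation), -0.70 to -0.63 (amino acid supply), -0.54 to -0.24 (glycolysis), -0.52 to -0.21 (FGF and ERK), -0.29 to -0.26 (primitive endoderm) and -0.47 to 0.60 (fibroblast). Leaving out each clone also turned the sign of 6 named genes, none of them called with all 4 clones: Col5a2 (-0.056 to 2.12), Fcer1g (-0.088 to 0.42), Tagln (-0.11 to 1.70), Pou5f1 (-0.19 to 0.27), Myc (-2.21 to 0.24) and Sox2 (-0.029 to 0.15). Pou5f1 was at -0.05 without OSK clone 2, and Sox2 at -0.0035 with quantile normalization. Beyond the arithmetic of fewer clones, the cause was not tested.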
